A study of Homo sapiens and Mus musculus with 24 samples.

Results

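The 10 genes described here are long noncoding RNAs (lncRNAs) of imprinted loci. They were taken by name from the Ensembl genes in the count tables, H19, KCNQ1OT1, MEG3, MEG8 and SNHG14 among 58381 human genes and Kcnq1ot1, Meg3, Rian, Mirg and Snhg14 among 53715 mouse genes. The data are RNA-seq libraries of RNA recovered from the aqueous phase of a phenol-chloroform extraction, from cells that were irradiated with short-wavelength ultraviolet light (UPA-seq, UV-irradiated) or left nonirradiated. There were 24 libraries, 3 for each condition of HepG2 (a human hepatocellular carcinoma line), HEK293 (a human embryonic kidney line, which the culture methods of the study call HEK293T), Neuro2a (a mouse neuroblastoma line) and HippCulture (a primary culture of hippocampal neurons from mouse embryos at E16.5). Within a cell type, no genotype or treatment other than irradiation separated the groups. Per the study's methods, the hippocampal cells alone had been treated with AraC, which kills dividing cells, to remove glia. Figure legends of the study call the replicates biological, but nothing in the labels says that the 3 came from separate cultures. The p-values measure the spread between these libraries, which may in part be technical.

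At an imprinted locus, genes are expressed from the chromosome inherited from a single parent, and a long noncoding transcript is often made from the chromosome on which the neighboring protein-coding genes are silent. KCNQ1OT1 starts inside the KCNQ1 gene, runs antisense to it and is known to silence neighbors such as CDKN1C in cis. MEG3, MEG8 (Rian in mouse) and Mirg are transcribed from the maternal chromosome of the DLK1-DIO3 locus and carry many small nucleolar RNAs (snoRNAs) and miRNAs. SNHG14 starts near SNURF and SNRPN on the paternal chromosome, hosts the SNORD116 and SNORD115 clusters and ends antisense to UBE3A, which it silences in neurons. In UPA-seq, an RNA that has been covalently joined to protein by the light goes to the interphase and is missing from the library, and bound protein can also hinder reverse transcription. A change here is a change in the reads recovered, and its routes were not separated.

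In the builds used by the files, H19 lies at chr11:1995176-2001470 and KCNQ1OT1 at chr11:2608328-2699994 of hg38, both on the minus strand, and KCNQ1OT1 is a single unspliced block of 91667 bases inside introns and 121 exonic bases of KCNQ1. MEG3 (chr14:100779410-100861031, plus strand), MEG8 (chr14:100894770-101038859, plus strand) and SNHG14 (chr15:24978583-25419462, plus strand) are spliced, with 23214, 10991 and 43324 exonic bases. In mm10, Kcnq1ot1 (chr7:143203458-143296549, minus strand) is again 1 block, of 93092 bases. Meg3 (chr12:109541001-109571726), Rian (chr12:109603940-109661716) and Mirg (chr12:109729764-109749460) follow each other on the plus strand, and Snhg14 (chr7:59307924-59975759) is on the minus strand.

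Inside both KCNQ1OT1 genes the annotation places 4 short segments, listed as separate genes of the opposite strand, that correspond between the species. Their identity in a global alignment of human and mouse was 94.4% over 465 positions, 85.8% over 197, 94.1% over 119 and 89.0% over 228, from the segment farthest from the transcript start to the nearest. A pair of them is shown because their counts are used below; the letters are the reference genome on the strand of the lncRNA, 5′ to 3′, and capitals mark the longest run that human and mouse share, 37 bases in the first pair and 44 in the second.
ENSG00000276494, hg38 chr11:2674625-2674740, minus strand: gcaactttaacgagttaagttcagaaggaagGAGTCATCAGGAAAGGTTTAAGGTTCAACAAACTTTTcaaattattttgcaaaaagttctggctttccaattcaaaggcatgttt
Gm27803, mm10 chr7:143273566-143273684, minus strand: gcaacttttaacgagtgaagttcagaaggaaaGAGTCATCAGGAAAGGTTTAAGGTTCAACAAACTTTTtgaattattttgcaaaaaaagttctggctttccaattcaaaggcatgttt
ENSG00000276015, hg38 chr11:2697851-2698076, minus strand: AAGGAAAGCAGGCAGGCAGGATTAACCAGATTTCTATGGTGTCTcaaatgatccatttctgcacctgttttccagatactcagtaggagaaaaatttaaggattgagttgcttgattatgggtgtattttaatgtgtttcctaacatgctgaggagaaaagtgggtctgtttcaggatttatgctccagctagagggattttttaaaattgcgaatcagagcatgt
Gm27539, mm10 chr7:143293932-143294155, minus strand: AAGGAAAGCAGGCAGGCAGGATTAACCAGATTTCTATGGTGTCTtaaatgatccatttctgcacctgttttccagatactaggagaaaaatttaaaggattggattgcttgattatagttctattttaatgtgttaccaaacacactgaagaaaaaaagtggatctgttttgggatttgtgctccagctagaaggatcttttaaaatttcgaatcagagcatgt

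The libraries held between 6910907 and 53511592 counts in genes, and those of HepG2 (36573473 to 53511592) were deeper than the others (6910907 to 11188033). Replicates differed by more than sampling noise in every group, and 2 libraries stood furthest apart from their group. The chi-square per degree of freedom was 118 and 86.6 between nonirradiated HepG2 replicate 1 and the others, against 3 between those. It was 38.3 and 45.2 for irradiated HEK293 replicate 1, against 4.21. Less far apart were nonirradiated HEK293 replicate 1 (18.9 and 23.5, against 5.29) and nonirradiated HippCulture replicate 3 (14.4 and 23.1, against 5.8). Markers counted as present at a CPM (counts scaled to library size) of 0.5 in every nonirradiated library of a cell type. In their own cell type these were 6 of 6 hepatocyte genes and 5 of 5 genes set for HEK293. In mouse they were 4 of 6 genes set for Neuro2a and 7 of 7 neuronal genes. The 2 mouse sets, which share Tubb3, separated less. Neuro2a also held 5 of 7 neuronal genes, and HippCulture 1 of 6 Neuro2a genes. The Neuro2a set summed to 666 to 767 CPM in Neuro2a and 1190 to 1290 CPM in HippCulture. HippCulture also held astrocyte genes, at a summed 572 to 672 CPM against 3570 to 3980 CPM for the neuronal genes. Upon irradiation the astrocyte sum was 482 to 618 CPM and the neuronal sum 1870 to 2440 CPM, and the part of the cell mixture in the HippCulture results was not tested.

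Of the 20 pairs of a member and a cell type, 15 reached a mean of 0.5 CPM in the nonirradiated libraries and were tested. Upon UV irradiation 12 of them decreased, 0 increased and 3 did not pass the threshold (edgeR's quasi-likelihood test, adjusted p under 0.05 over all genes tested). The 12 were 3 of 3 members tested in HepG2, 2 of 2 in HEK293, 2 of 5 in Neuro2a and 5 of 5 in HippCulture. Among all genes tested in the same comparison, 40.7%, 26.4%, 33.0% and 25.9% decreased, and 38.1%, 24.2%, 28.9% and 26.1% increased, in this order of cell types. In the same order, the median log2 ratio of UV-irradiated to nonirradiated over the members tested was -2.50, -2.13, -0.74 and -1.12. Over all genes tested it was -0.08, -0.08, -0.14 and -0.04, and over all lncRNAs tested -0.63, -0.28, -0.37 and -0.21. These ratios use the trimmed mean of M values (TMM), which sets the bulk of the genes near 0. Scaled to library size alone, the median of all genes moved to -1.38, -0.84, -1.32 and -0.59, so each change is relative to the other RNAs that stayed in the aqueous phase. On that scale 15830 genes decreased and 1734 increased in HepG2, and the split moved the same way in the other cell types.

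**Figure D1:**
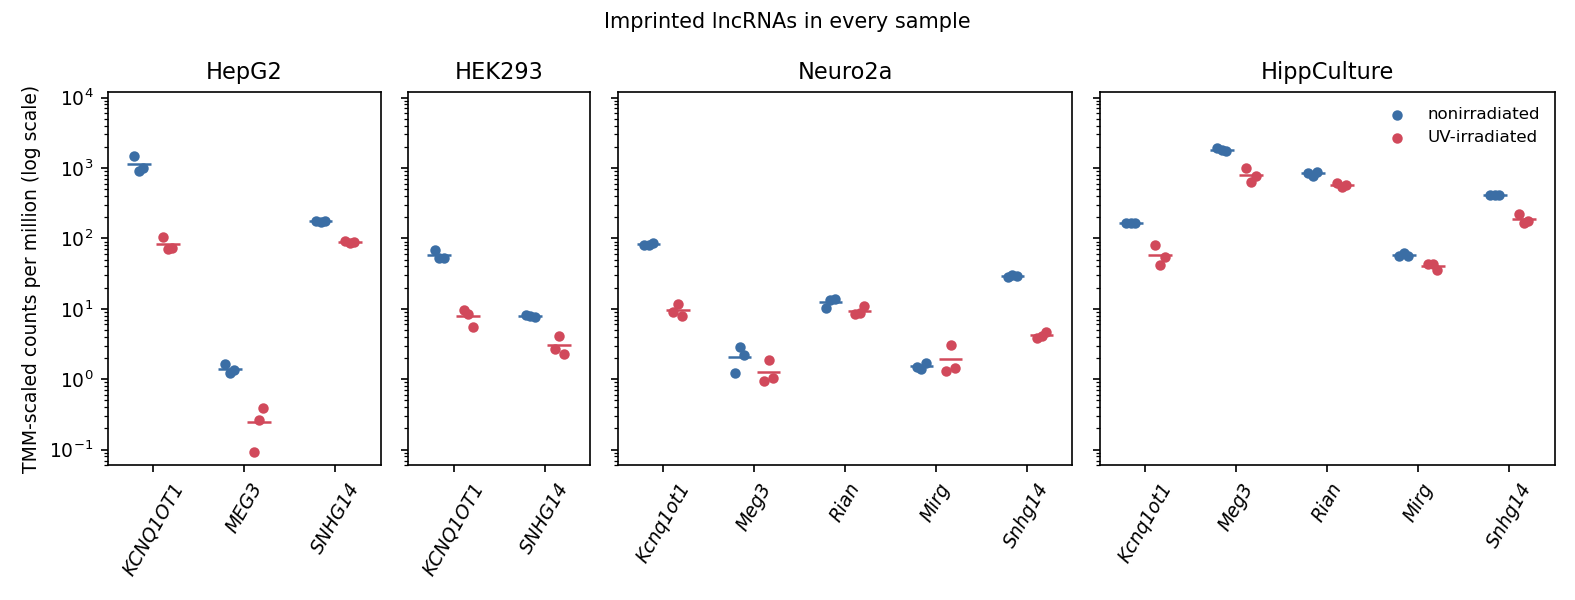
TMM-scaled CPM (log axis) of each member that was tested, in every library of the 4 cell types; blue points are the 3 nonirradiated and red points the 3 UV-irradiated libraries, and short lines are their means. The conditions do not overlap except for Meg3, Rian and Mirg in Neuro2a.

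**Figure D2:**
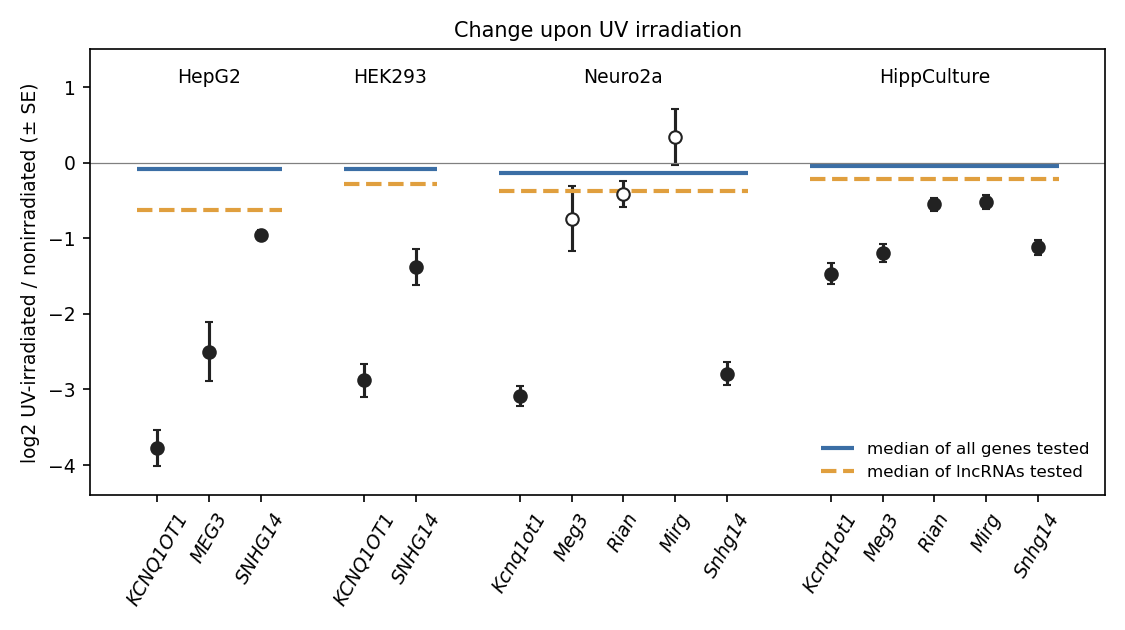
Log2 ratio of UV-irradiated to nonirradiated with its standard error for each member tested; filled points passed an adjusted p of 0.05, and solid and dashed lines are the medians of all genes and of all lncRNAs tested in that cell type. As counted, KCNQ1OT1 and its mouse counterpart have the lowest value in each cell type, from -3.77 in HepG2 to -1.47 in HippCulture; without reads shared with Ube3a, Snhg14 would be lower in Neuro2a (-4.21).

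KCNQ1OT1 decreased in all 4 cell types. As counted it had the lowest log2 ratio of the members in each, but in Neuro2a the order turned once reads shared with Ube3a were taken off Snhg14, as given below. In HepG2 it had 84347, 77478 and 65478 counts in the nonirradiated and 3428, 1880 and 2205 in the irradiated libraries. On the TMM scale this was 1500, 910 and 995 CPM against 106, 71.0 and 72.5 CPM. Every irradiated library was below every nonirradiated library, and 7.34% of the level was left (log2 ratio -3.77 ± 0.238 SE, adjusted p = 1.1e-06). Of all genes tested in HepG2, 5.51% had a lower ratio. Without nonirradiated replicate 1, the library that stood apart, the log2 ratio was -3.59 ± 0.061 SE.

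In HEK293, where KCNQ1OT1 was less abundant, its counts were 811, 641 and 689 without and 64, 73 and 50 with irradiation, or 57.5 ± 9.55 against 7.86 ± 2.1 CPM (SD, n = 3 each). The groups were again apart, with 13.6% left (log2 ratio -2.88 ± 0.219 SE, edgeR adjusted p = 3.7e-05; -3.03 without irradiated replicate 1). Mouse Kcnq1ot1 in Neuro2a had 1045, 1106 and 952 counts against 49, 58 and 39, with 11.8% left (log2 ratio -3.09 ± 0.131 SE, adjusted p = 1.6e-09). In HippCulture the decrease was smaller, from 1713, 1576 and 1684 counts to 568, 209 and 420, with 36.0% left (log2 ratio -1.47 ± 0.139 SE, adjusted p = 3e-08). The 3 irradiated HippCulture libraries were spread over 80.7, 42.1 and 54.2 CPM, whereas the nonirradiated ones lay within 163 to 167 CPM.

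The 4 short segments inside KCNQ1OT1 could be tested in HepG2, and all decreased, beside 40.7% of all genes tested. ENSG00000276494, the first sequence shown above, had 138, 149 and 150 counts without and 3, 0 and 0 with irradiation (log2 ratio -5.90 ± 0.557 SE, adjusted p = 1.3e-05). ENSG00000276015, near the transcript start, had 362, 319 and 242 counts against 18, 4 and 13 (log2 ratio -3.55 ± 0.380 SE, adjusted p = 2.9e-05). The other two had log2 ratios of -4.21 and -2.90. Of the mouse segments, the 3 with at least 10 counts in a sample were tested in each mouse cell type. Of these 3, 2 decreased in each, at few counts. Among all genes tested, 33.0% decreased in Neuro2a and 25.9% in HippCulture. Gm27539 decreased in HippCulture, from 13, 16 and 6 counts to 2, 0 and 3 (log2 ratio -2.14 ± 0.650 SE, adjusted p = 0.0091). Gm27803 had at most 5 counts in a library and is shown above as the counterpart of the human segment. In Neuro2a, with 4, 4 and 5 counts against 0, 0 and 0, it passed the 0.5 CPM filter. Its ratio is not given because of the few counts. Reads of a segment are also reads of the lncRNA, so these values are not independent of it.

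KCNQ1, the potassium channel gene that KCNQ1OT1 runs against, was tested in all 4 cell types. It decreased in HepG2, from 184, 201 and 159 counts to 17, 5 and 7 (log2 ratio -3.04 ± 0.332 SE, adjusted p = 3.4e-05), and increased in HEK293, from 16, 23 and 35 counts to 20, 30 and 37 (log2 ratio 0.85 ± 0.301 SE, adjusted p = 0.041). In Neuro2a and HippCulture, at no more than 14 counts, its log2 ratios of -0.62 and -0.77 did not pass. The counting used no strand option and gave a read to every gene it overlapped. Reads from unspliced KCNQ1 RNA and from KCNQ1OT1 therefore cannot be told apart. If the counts of KCNQ1 lay evenly over its exons, those on the 121 shared bases would make up at most 0.0135% of the KCNQ1OT1 counts in HepG2 and 2.01% in HEK293. In the other direction, KCNQ1OT1 counts spread evenly would make up 111, 102 and 86.4 of the KCNQ1 counts in the nonirradiated HepG2 libraries (50.9 to 60.5%) and 0.846 to 1.07 in those of HEK293. Without them, an alternative added after the data had been seen, the log2 ratio of KCNQ1 was -2.48 in HepG2 (adjusted p = 0.00035) and 0.91 in HEK293 (adjusted p = 0.034). CDKN1C, the cell cycle inhibitor of this locus, was tested in HEK293, at 5, 5 and 6 against 6, 6 and 8 counts (log2 ratio 0.93, adjusted p = 0.088), and in HippCulture, where it increased from 19, 16 and 14 to 31, 25 and 25 counts (log2 ratio 1.33 ± 0.273 SE, adjusted p = 0.00036).

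SNHG14 decreased in all 4 cell types as well. In HepG2 its counts were 9920, 14689 and 11476 against 2993, 2302 and 2711, or 176, 172 and 174 CPM against 92.6, 86.9 and 89.2 CPM. The replicates lay close together within each condition, and 51.4% was left (log2 ratio -0.96 ± 0.0643 SE, adjusted p = 1.6e-06). This value is shared with another gene. ENSG00000214265, a protein-coding gene without a symbol that overlaps SNURF and SNRPN, has 66.0% of its exonic bases in common with SNHG14, and it increased from 2179, 3899 and 3077 counts to 3883, 3121 and 3460 (log2 ratio 1.42 ± 0.0858 SE, adjusted p = 8.9e-07). The split of the reads between the 2 genes is not known, but the counts limit it. ENSG00000261069, a noncoding gene that lies wholly in exons of SNHG14, had 1187, 2219 and 1661 counts against 1096, 861 and 1040, which is 36.6 to 38.4% of the SNHG14 counts in the irradiated libraries. If the same share of the ENSG00000214265 counts was also counted for SNHG14 in every library, and no read touched both smaller genes, that share was at most 46.2%. With this largest share taken off, an alternative added after the data had been seen, SNHG14 had 8914, 12889 and 10055 counts against 1200, 861 and 1113, and the log2 ratio was -2.12 ± 0.0763 SE (adjusted p = 2.5e-07). Under these conditions the ratio of SNHG14 without the other gene lies between -2.12 and -0.96. SNHG14 also shares 141 exonic bases with SNRPN, which increased as given below, and reads on those bases were not taken off separately.

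In HEK293, SNHG14 had 96, 99 and 101 counts without and 18, 35 and 21 with irradiation, or 7.92 ± 0.245 against 3.03 ± 0.914 CPM (SD, n = 3 each). The groups did not overlap (log2 ratio -1.38 ± 0.240 SE, edgeR adjusted p = 0.0014). ENSG00000214265 had at most 1 count in any HEK293 library. In Neuro2a, mouse Snhg14 fell from 368, 414 and 329 counts to 21, 20 and 23, with 14.5% left (log2 ratio -2.79 ± 0.147 SE, adjusted p = 3.3e-09). In HippCulture it fell from 4305, 3998 and 4091 to 1578, 826 and 1368 counts, with 45.9% left (log2 ratio -1.12 ± 0.0976 SE, adjusted p = 9.9e-09).

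Snhg14 shares 1803 exonic bases with the opposite strand gene Ube3a, a ubiquitin ligase. Counts of Ube3a spread evenly over its exons would make up 44.2 to 46.0% of the Snhg14 counts in nonirradiated and 75.3 to 88.3% in irradiated Neuro2a libraries, but only 3.09 to 4.59% over all HippCulture libraries. Without that share, again an alternative added after the data had been seen, 205, 224 and 181 counts against 5, 2 and 6 were left in Neuro2a (log2 ratio -4.21 ± 0.252 SE, adjusted p = 8.4e-09), and the HippCulture ratio was -1.11. In HEK293 the same step gave -1.57 (adjusted p = 0.0021) and in HepG2 -0.96. Even spreading is an assumption that these counts do not test, and for ENSG00000214265 in HepG2 it would take off more reads than the counts allow.

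UBE3A itself decreased in all 4 cell types, with log2 ratios of -0.55 and -0.77 in the human lines HepG2 and HEK293, -1.97 in Neuro2a and -1.40 in HippCulture. At the other end of the locus SNRPN and SNURF, which are made from the same chromosome as SNHG14 and encode a spliceosomal protein and a short upstream reading frame, increased in each of the 3 cell types in which they were tested. These increases are relative to the shift of all genes given above. SNRPN had log2 ratios of 1.63 ± 0.0905 SE in HepG2, 1.17 ± 0.150 in Neuro2a and 0.73 ± 0.0793 in HippCulture. SNURF had 1.66, 0.99 and 0.71. Human SNURF lies within the span of SNRPN on the same strand, so the 2 genes can hold the same reads. How far they do was not tested. In HepG2, SNRPN went from 66.0 ± 7.08 to 205 ± 5.74 CPM (SD, n = 3 each). PWAR5, a noncoding gene on the span of SNHG14, decreased from 1668, 2770 and 2152 counts to 184, 89 and 141 (log2 ratio -2.78 ± 0.158 SE, edgeR adjusted p = 6.7e-07), and NPAP1, a neighbor outside the span of the lncRNA, from 314, 316 and 241 to 18, 13 and 14 (log2 ratio -3.09). NDN, the intronless gene for the growth suppressor necdin, was tested in HippCulture only, where it had 259 ± 8.66 against 249 ± 9.43 CPM (SD, n = 3 each; log2 ratio -0.06 ± 0.0778 SE, edgeR adjusted p = 0.57).

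**Figure D3:**
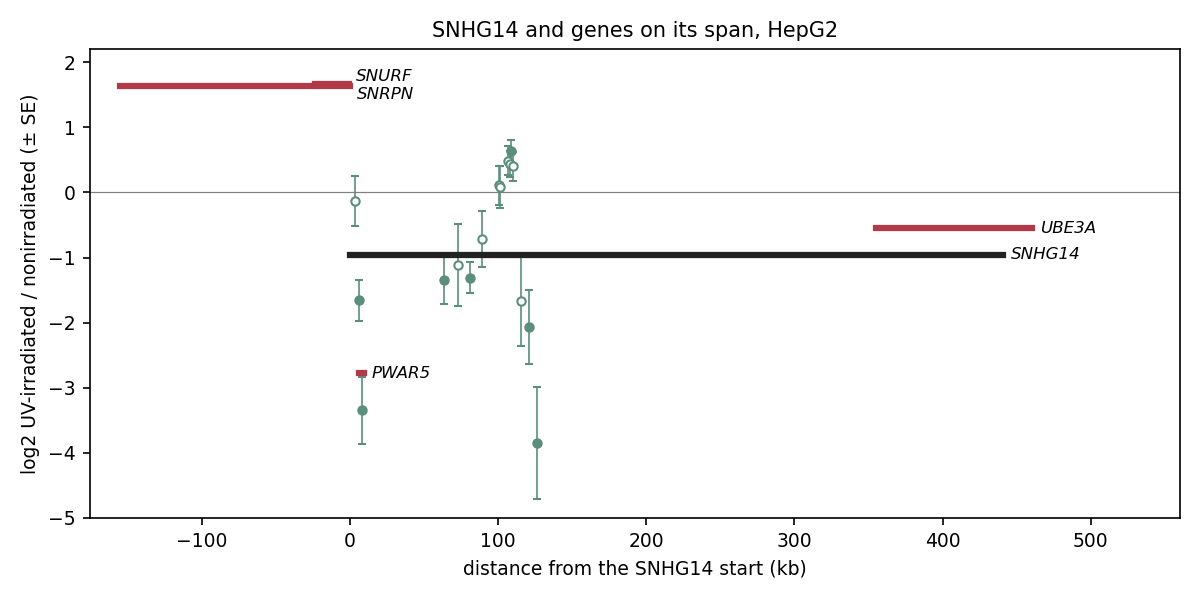
Log2 ratio of UV-irradiated to nonirradiated in HepG2 against the distance from the SNHG14 start in kilobases. Horizontal bars span SNHG14 (black) and 4 other genes (red), and green points with their standard errors are snoRNA genes inside SNHG14, filled where the adjusted p was under 0.05; SNRPN and SNURF lie above 1.5 and PWAR5 near -2.8.

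SNHG14 holds 84 snoRNA genes. In HEK293, 83 of them had 0 counts in every library, and in Neuro2a 197 of the 208 inside mouse Snhg14. In HepG2, 16 were tested, of which 6 decreased and 1 increased, with a median log2 ratio of -0.91. Of all genes tested there, 40.7% decreased and 38.1% increased. Reads of the host RNA that cross a snoRNA are counted for it too, and near-identical copies share reads, so single copies are uncertain. The SNORD116 copies did not move alike, and 3 of them are shown with the C box sequence TGATGA and the D box sequence CTGA of this snoRNA class in capitals where the letters are present; 28 of the 30 copies hold the first and 30 the second.
SNORD116-4, hg38 chr15:25059538-25059633, plus strand: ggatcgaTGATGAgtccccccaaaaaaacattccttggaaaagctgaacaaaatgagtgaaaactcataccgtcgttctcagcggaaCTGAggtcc
SNORD116-20, hg38 chr15:25087662-25087753, plus strand: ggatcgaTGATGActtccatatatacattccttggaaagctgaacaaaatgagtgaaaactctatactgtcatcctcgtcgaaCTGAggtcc
SNORD116-28, hg38 chr15:25104642-25104732, plus strand: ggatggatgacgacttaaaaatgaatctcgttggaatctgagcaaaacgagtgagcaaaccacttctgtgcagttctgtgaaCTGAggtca

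SNORD116-4 decreased from 111, 112 and 108 counts to 23, 15 and 21 (log2 ratio -1.31 ± 0.241 SE, adjusted p = 0.00093). SNORD116-28, 65.3% identical to it, decreased from 29, 23 and 20 counts to 0, 0 and 2 (log2 ratio -3.85 ± 0.857 SE, adjusted p = 0.0027). SNORD116-20, 83.5% identical to SNORD116-4, was the copy that increased, with 90, 191 and 150 against 108, 73 and 104 counts (log2 ratio 0.63 ± 0.180 SE, adjusted p = 0.010). This increase is relative to the bulk of the genes, and the raw counts of the 2 conditions overlapped. In order along the transcript, the 3 tested copies from SNORD116-1 to SNORD116-7 had log2 ratios of -1.31 to -0.71. The 6 tested from SNORD116-13 to SNORD116-21 had 0.09 to 0.63, and the 3 from SNORD116-24 to SNORD116-28 had -3.85 to -1.67. This grouping was made after the values were seen and leaves out copies below the filter. In the middle stretch, SNORD116-15 had 7, 12 and 8 against 0, 0 and 0 counts. SNORD116-16 had 3, 1 and 11 against 5, 1 and 1, and SNORD116-17 had 7, 14 and 14 against 0, 0 and 1. SNORD116-17 has the same sequence as the tested SNORD116-19. A pattern by position therefore cannot be read from the tested copies. ENSG00000261069, the noncoding gene named above, spans SNORD116-20 and SNORD116-21 and had a log2 ratio of 0.48 ± 0.0910 SE (adjusted p = 0.0011).

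Meg3, Rian and Mirg, the lncRNAs of the DLK1-DIO3 locus, all decreased in HippCulture. Meg3 had 19917, 17611 and 17524 counts without and 6962, 3181 and 5913 with irradiation, or 1830 ± 93.2 against 798 ± 177 CPM (SD, n = 3 each). This left 43.6% (log2 ratio -1.20 ± 0.120 SE, edgeR adjusted p = 6.5e-08), and the groups did not overlap. Rian, with 8885, 7499 and 8809 against 4302, 2655 and 4409 counts, and Mirg, with 589, 599 and 569 against 307, 212 and 280, decreased less. Their log2 ratios were -0.55 ± 0.0878 SE (adjusted p = 2.5e-05) and -0.52 ± 0.0949 SE (adjusted p = 1e-04), so that 68.3% and 69.5% were left. The differences between Meg3, Rian and Mirg within a library were not tested.

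In Neuro2a these 3 lncRNAs were present at few counts, and none passed the threshold. Meg3 had 16, 39 and 25 counts against 5, 9 and 5 (log2 ratio -0.74 ± 0.433 SE, edgeR adjusted p = 0.15), and the groups overlapped on the CPM scale. Rian had 133, 185 and 154 counts against 45, 43 and 54 (log2 ratio -0.41 ± 0.173 SE, edgeR adjusted p = 0.053). Mirg had 19 counts in each nonirradiated and 7, 15 and 7 in the irradiated libraries (log2 ratio 0.34 ± 0.375 SE, edgeR adjusted p = 0.44). Rian was close to the threshold. Without nonirradiated replicate 1 it passed (log2 ratio -0.53, adjusted p = 0.015), as did Meg3 (log2 ratio -1.01, adjusted p = 0.041), and without irradiated replicate 3 Rian passed too (log2 ratio -0.55, adjusted p = 0.029). Without irradiated replicate 2 the ratio of Mirg was -0.15.

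Human MEG3 was tested in HepG2 only, at 94, 104 and 89 counts without and 3, 7 and 12 with irradiation, or 1.41 ± 0.230 against 0.251 ± 0.151 CPM (SD, n = 3 each). It decreased, with 17.7% left (log2 ratio -2.50 ± 0.393 SE, edgeR adjusted p = 0.00035). In HEK293 it had at most 4 counts in a library, and MEG8 at most 3 in any human library. H19 is listed at 0 counts in all 6 HepG2 libraries, where 3 counts would be 0.0561 to 0.0820 CPM, and at 0 to 4 counts in HEK293. Whether the 0 in HepG2 comes from missing RNA or from the mapping and counting was not tested. IGF2, the growth factor gene next to H19, had 129616, 39917 and 37709 counts in nonirradiated and 18674, 14589 and 17048 in irradiated HepG2 libraries (log2 ratio -0.98 ± 0.519 SE, adjusted p = 0.11), nonirradiated replicate 1 being far above the others.

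Small RNA genes inside the 3 mouse lncRNAs were counted in HippCulture. Of all genes tested there, 25.9% decreased and 26.1% increased. Only genes with at least 10 counts in a sample entered the numbers that follow. Both miRNA genes in Meg3 decreased, as did 8 of 10 snoRNA and miRNA genes in Rian and 3 of 8 in Mirg. None of these increased. The minimum was reached mostly in nonirradiated libraries, which favors genes that decreased. Other genes in Rian and Mirg passed the 0.5 CPM filter with fewer counts, and their ratios are not given. The libraries were not made for short RNAs, and these counts can be reads of the host. Mir770 and Gm24895, which had the largest decrease in Meg3 and the most counts in Rian, are printed with the run of 10 bases that Mir770 shares with the human mature miRNA, and with the letters TGATGA and CTGA of Gm24895, in capitals. The human mature sequence, from RefSeq (GRCh38.p14), has its seed, bases 2 to 8, in capitals.
Mir770, mm10 chr12:109563692-109563785, plus strand: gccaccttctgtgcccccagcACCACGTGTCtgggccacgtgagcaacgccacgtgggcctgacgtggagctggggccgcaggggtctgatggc
hsa-miR-770-5p, chr14:100852409-100852431, plus strand: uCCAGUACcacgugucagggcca
Gm24895, mm10 chr12:109646129-109646202, plus strand: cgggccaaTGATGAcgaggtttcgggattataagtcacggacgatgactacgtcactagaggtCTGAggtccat

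Mir770 had 187, 153 and 172 counts without and 49, 20 and 39 with irradiation (log2 ratio -1.64 ± 0.168 SE, adjusted p = 8.9e-08). Mir1906-1, the other miRNA gene in Meg3, had 400, 375 and 342 against 228, 91 and 201 (log2 ratio -0.52 ± 0.137 SE, adjusted p = 0.0035). Gm24895 had 244, 240 and 313 against 126, 98 and 127 counts (log2 ratio -0.57 ± 0.127 SE, adjusted p = 0.00086). The ratios of the 10 genes with enough counts in Rian ran from -2.32 to -0.44, and those of the 8 in Mirg from -1.41 to -0.12.

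None of the protein-coding neighbors tested at the DLK1-DIO3 locus passed the threshold as decreased. DLK1, an inhibitor of Notch signaling, was tested in HepG2 and increased from 75.6 ± 8.84 to 217 ± 4.12 CPM (SD, n = 3 each; log2 ratio 1.52 ± 0.0918 SE, edgeR adjusted p = 8.9e-07). Begain, which encodes a synaptic protein, increased in HippCulture (log2 ratio 0.57, adjusted p = 6e-04), and DIO3, a thyroid hormone deiodinase, in HEK293, at 4, 7 and 4 against 4, 8 and 14 counts (log2 ratio 1.37 ± 0.495 SE, adjusted p = 0.044). Rtl1, a retrotransposon-derived gene with its antisense miRNAs, had 32.3 ± 2.45 against 27.6 ± 1.25 CPM in HippCulture (SD, n = 3 each; log2 ratio -0.24 ± 0.103 SE, edgeR adjusted p = 0.060). Over the neighbors of all 4 loci, listed with earlier results of these data known, 5 of 11 tested decreased and 4 increased in HepG2, 1 of 10 decreased and 2 increased in HEK293, 1 of 8 decreased and 2 increased in Neuro2a, and 3 of 15 decreased and 5 increased in HippCulture. Their median log2 ratios were -0.55, 0.66, 0.43 and 0.03. In the same order, 40.7%, 26.4%, 33.0% and 25.9% of all genes tested decreased, and 38.1%, 24.2%, 28.9% and 26.1% increased. Whether the neighbors differ from these shares was not tested.

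Of 6 other imprinted lncRNAs listed for each species, all 6 were among the human genes and 4 among the mouse genes, and 3 were tested in each cell type. AIRN, which silences IGF2R in mouse, had 36, 61 and 56 counts in nonirradiated and 0 in all 3 irradiated HepG2 libraries, so that it was at least 21.9-fold lower against a floor of 3 counts over the irradiated group (adjusted p = 1e-04). PEG13 had log2 ratios of -0.12 in HepG2 and -0.86 in HEK293 that did not pass, and mouse Peg13 decreased in Neuro2a (-0.94, adjusted p = 0.00028) and in HippCulture (-0.46, adjusted p = 0.00026). Nespas, antisense to the Gnas locus, decreased in HippCulture (-1.12, adjusted p = 0.0023), and its ratio of -0.30 in Neuro2a had an adjusted p of 0.11. Mouse Airn had ratios of -0.30 and 0.14 with adjusted p of 0.50 and 0.70, and GNAS-AS1, DIO3OS and MESTIT1 did not pass either.

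The levels of the members in nonirradiated cells were compared per kilobase of exon, as RPKM over the whole library. In HippCulture, Meg3 was highest at 123 ± 15.4 RPKM, followed by Rian at 55.7 ± 3.44, Snhg14 at 19.2 ± 1.84, Mirg at 9.78 ± 1.22 and Kcnq1ot1 at 2.16 ± 0.161 (SD, n = 3 each), and no neighbors in this order overlapped. In Neuro2a the order was Snhg14 at 1.70 ± 0.0546, Kcnq1ot1 at 1.34 ± 0.0313, Rian at 1.04 ± 0.158, Mirg at 0.315 ± 0.0312 and Meg3 at 0.176 ± 0.0683 RPKM, again without overlap as counted. Without the evenly spread Ube3a counts, and per base not shared with Ube3a, Snhg14 in Neuro2a was at 1.01 ± 0.0151 RPKM, below Kcnq1ot1 and within the range of Rian (0.856 to 1.13 RPKM). In HepG2, KCNQ1OT1 had 19.4 ± 5.05, SNHG14 6.32 ± 0.0562 and MEG3 0.0955 ± 0.0138 RPKM, and in HEK293 KCNQ1OT1 had 0.816 ± 0.107 and SNHG14 0.239 ± 0.00351 RPKM.

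**Figure D4:**
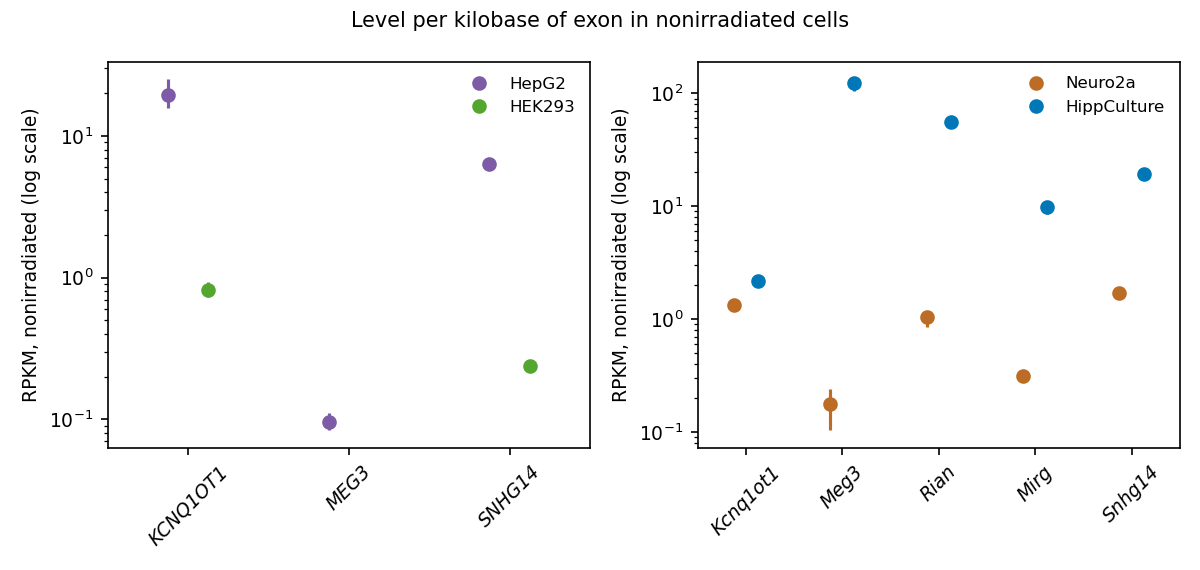
RPKM in nonirradiated cells (log axis), as the mean of 3 libraries with a line from the lowest to the highest, for members tested in that cell type. In mouse, Meg3 goes from the highest of the 5 in HippCulture to the lowest in Neuro2a.

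All 5 mouse members were lower in Neuro2a than in HippCulture, where 41.4% of all genes tested were lower and 39.0% higher. Meg3 differed most, by 760-fold (log2 difference -9.57 ± 0.166 SE, adjusted p = 1.3e-18), and only 1.27% of the genes tested had a lower value. Rian was 59.1-fold, Mirg 34.0-fold, Snhg14 12.4-fold and Kcnq1ot1 1.78-fold lower, each with an adjusted p of at most 9.4e-09. Without the evenly spread Ube3a counts the log2 difference of Snhg14 moved from -3.63 to -4.43. Of the neighbors, Snrpn was 24.1-fold and Ube3a 1.18-fold lower, and Ndn had 0 counts in the 3 nonirradiated Neuro2a libraries. In these bulk samples fewer cells that make an RNA and less RNA per cell cannot be told apart.

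The 3 human members tested were all higher in HepG2 than in HEK293, against 37.6% of all genes higher and 38.1% lower. SNHG14 was 36.0-fold (log2 difference 5.17 ± 0.153 SE, adjusted p = 3.5e-10), KCNQ1OT1 32.2-fold (5.01 ± 0.252 SE, adjusted p = 1.2e-08) and MEG3 16.7-fold higher (4.06 ± 0.560 SE, adjusted p = 5.1e-05). The HepG2 libraries were run on another sequencer and counted with another version of the counting program than those of HEK293, and cell type and run cannot be told apart. These level differences and the changes upon irradiation rest on the same nonirradiated libraries.

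Whether the change upon irradiation differed between cell types of a species was tested as an interaction. The decrease in Neuro2a was larger than in HippCulture for Kcnq1ot1, by 1.62 ± 0.250 SE on the log2 scale (adjusted p = 0.00015), and for Snhg14, by 1.67 ± 0.206 SE (adjusted p = 1.5e-05). These were 2 of 5 members, beside 16.1% of all genes with a lower and 8.39% with a higher value in Neuro2a. The differences for Meg3 (0.45 ± 0.506 SE, adjusted p = 0.55), Rian (0.13 ± 0.195 SE, adjusted p = 0.65) and Mirg (0.86 ± 0.345 SE, adjusted p = 0.073) did not pass, and the wide error of Meg3 leaves room for a difference in either direction.

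Between HepG2 and HEK293, 0 of 2 members passed, where 4.85% of all genes were lower and 3.10% higher in HepG2. KCNQ1OT1 had a difference of -0.99 ± 0.329 SE (edgeR adjusted p = 0.083, unadjusted p = 0.0094). Like-numbered HEK293 libraries moved together, and with the replicate number as a block the difference was -0.98 with an adjusted p of 0.0021; it also passed with DESeq2 (-1.02, adjusted p = 0.032). SNHG14 had a difference of 0.32 ± 0.206 SE (adjusted p = 0.37, unadjusted p = 0.15). With the largest possible share of ENSG00000214265 taken off, the sign turned, to -0.84 ± 0.215 SE (adjusted p = 0.028), so the counts leave the direction of this difference undetermined. KCNQ1 had a value of -3.99 ± 0.467 SE (adjusted p = 2e-04), and of -3.48 ± 0.497 SE (adjusted p = 0.00083) without the evenly spread KCNQ1OT1 counts.

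The genes whose levels followed each member most closely over the 12 libraries of a species were INO80D and NFAT5 for KCNQ1OT1 (Pearson's r on log2 CPM of 0.9960 and 0.9957), RASGRF2 and PRLR for SNHG14, Usp9x and Luc7l for Kcnq1ot1, Mturn and Rimklb for Meg3, Cntn1 and Srcin1 for Rian, Lonrf2 and Kcnh7 for Mirg, and Dip2a and Fbxw7 for Snhg14. With 4 groups behind the 12 libraries, r mostly reflects the differences between groups. Of 16101 genes, Rian ranked 21 in likeness to Meg3 (r = 0.9977) and Mirg, of the same locus, 488 (r = 0.99). Snhg14 and Kcnq1ot1 ranked 3483 and 6247.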

How the data were processed

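The deposited values are counts: whole numbers of reads per gene that the authors made with featureCounts (1.5.3 for HepG2, 1.6.1 for the others, per the file headers) on GENCODE 28 and M17 exons, after mapping to hg38 or mm10 with TopHat2 2.1.1. A read was counted for every gene it overlapped, without strand. The labels name a stranded kit and the study's methods an unstranded TruSeq RNA v2 kit after rRNA removal. HepG2 was sequenced on another instrument model. All 24 samples were grouped by title.

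Symbols came from GENCODE 44 and M21 (98.93% and 99.82% of genes matched). Genes with a mean CPM of 0.5 or more without irradiation (in either cell type for levels, in both for interactions) were tested with edgeR 4.0.16 (quasi-likelihood, TMM, Benjamini-Hochberg) in R 4.3.3, and with DESeq2 1.42.0 as an alternative. The fits were tested on simulated data. Levels are TMM-scaled CPM, or RPKM from exon unions in the files. The members, neighbors, other imprinted lncRNAs and markers were chosen with earlier results of these data known. All members were named. Neighbors and other imprinted lncRNAs were counted in full and could be named where they passed 0.5 CPM. Small RNA genes inside a member, and genes sharing its exons, could be named with at least 10 counts in a sample. Only such genes entered their numbers tested and called. The 2 genes most correlated with each member were taken among those averaging at least 1 CPM. Same-numbered HEK293 libraries deviated together from their group means (correlations 0.589, 0.302 and 0.391). The main fits had no replicate block, in HEK293 either, and so left this pairing out. A fit with the replicate number as a block was an alternative. Sequences were read with pysam 0.24.0 and aligned with Biopython 1.88.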

Additional observations from a re-analysis of the deposited data

Results flagged for a closer look

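The change upon UV irradiation differed between Neuro2a and HippCulture for 2 members, by the interaction test of edgeR. Kcnq1ot1 had a difference of -1.62 (11.8% left in Neuro2a, 36.0% in HippCulture). Snhg14 had a difference of -1.67 (14.5% left in Neuro2a, 45.9% in HippCulture). Snhg14 shares exonic bases with Ube3a, and without the evenly spread Ube3a counts its difference was -3.10 (adjusted p = 2.9e-06), an alternative added after the data had been seen whose even spread was not tested.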

How the results depend on the processing

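The calls of KCNQ1OT1, SNHG14 and MEG3 upon irradiation in the human lines, of Kcnq1ot1 and Snhg14 in Neuro2a and of the 5 members in HippCulture kept direction and side of the threshold under every alternative in which they passed the filter, as did the level differences of the members. MEG3 is not tested with a minimum of 10 counts in every sample. Meg3 and Mirg in Neuro2a had at most 39 counts in a library. The cause of the changes below was not tested, apart from scaling, whose shift of all genes is given in the report.

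Scaled to library size alone, the genes decreased numbered 15830 (HepG2), 11168 (HEK293), 12852 (Neuro2a) and 9149 (HippCulture), and those increased 1734, 1557, 1058 and 1320. All 5 members then decreased in Neuro2a, Mirg with -0.84 (adjusted p = 0.045). The interaction counts became 2930 lower and 120 higher for HepG2 against HEK293, with 1 member (KCNQ1OT1, -1.42) lower and SNHG14 at -0.12, and 7519 lower and 64 higher for Neuro2a against HippCulture, with Meg3 at -0.18 and Rian at -0.51. Rian in Neuro2a passed under DESeq2 size factors (-0.45), both other filters, all genes with a count (-0.49) and the replicate block (-0.41, adjusted p = 0.014). Mirg passed the interaction, as 1 member higher, under DESeq2 size factors (0.95), the DESeq2 test (0.96) and without Neuro2a irradiated replicate 1 (1.09).

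With at least 10 counts in every sample, fewer genes were tested, and 5384 were lower and 5468 higher for nonirradiated HepG2 against HEK293, 4915 and 4939 for Neuro2a against HippCulture, and 522 and 268 for the human interaction. With every gene that had a count, the human interaction had 1244 lower and 335 higher genes, with 1 member (KCNQ1OT1, -1.04) lower, and the mouse one 766 higher. The DESeq2 test gave 899 higher genes and 1 member lower in the human interaction. Leaving out single libraries, the human interaction had 500 to 895 genes lower and 236 to 1034 higher against 812 and 520: fewer by over 1.5 times in at least 1 direction without HepG2 nonirradiated replicate 3, HepG2 irradiated replicate 1, 2 or 3, or HEK293 nonirradiated replicate 2 or 3 or irradiated replicate 2, and more without HEK293 irradiated replicate 1. Members decreased in Neuro2a numbered 2 to 4, Mirg there ran from -0.15 to 0.56, and members higher in the mouse interaction numbered 0 to 1.

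With the replicate number as a block, the human interaction had 1443 genes lower and 2092 higher, and 1 member lower. In HEK293 the block gave 7228 genes decreased and 6688 increased, against 5405 and 4962 in the main fit. In Neuro2a, 3 members decreased in place of 2. The block changed no other call of a member. Same-numbered libraries correlated at 0.0364, 0.0262 and -0.0105 (HepG2), 0.228, 0.0829 and 0.108 (Neuro2a) and 0.126, 0.0632 and 0.0476 (HippCulture), and there they share only a number. In alternatives added after the data had been seen, SNHG14 had a human interaction of -0.84 without the largest possible share of ENSG00000214265 counts. Spreading those counts evenly gave -2.28, but this is no estimate: it left SNHG14 with 431, 243 and 428 irradiated HepG2 counts, fewer than the 1096, 861 and 1040 of ENSG00000261069, which lies in its exons. The level difference of KCNQ1 between HepG2 and HEK293, 1.15, was 0.04 without the evenly spread KCNQ1OT1 counts (adjusted p = 0.90).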
